A study of Homo sapiens with 15 samples.

Results

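Synchronous brain metastasis cells of the breast cancer line HCC1954 were compared with the parental line from which they derive. HCC1954 is an established human breast cancer cell line, labelled HER2-positive. The 4 synchronous metastasis libraries (S-BM 1 to S-BM 4) come from brain-tropic cells labelled as synchronous metastatic cells, and the 3 parental libraries (Pa 1 to Pa 3) from HCC1954 with no passage through brain named in the labels. Neither group was given a drug in the labels. They account for 7 of the 15 libraries of the study. The other 8 libraries, 4 of latent or residual cells with brain tropism (Lat) and 4 of metachronous metastatic cells (M-BM), are used below only to show where S-BM stands within its own table. All RNA was extracted from cells in culture, so no library measures cells in the brain itself. The labels do not say whether the libraries of a group are separate cultures, animals or clones, so the spread given with each value may be technical.

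S-BM stands in 1 deposited table together with Lat and M-BM, and Pa stands in another, so group and table cannot be told apart in any difference between S-BM and Pa. For this reason no p-value is given for that comparison. Both tables list the same 19845 gene names in the same order and were joined by row. A gene was kept when its normalized value, a read count that the authors scaled to similar library totals, was at least 10 in 3 or more of the 7 libraries. That kept 9585 genes (48.3%). A gene was called higher or lower when the ranges of the 4 S-BM and 3 Pa libraries did not overlap and the means differed by at least 1 on the scale of log2(value + 1), or 2-fold. Folds are given on that scale, which understates the change of genes with low values. Means are given ± SD, with n = 4 libraries in S-BM and n = 3 in Pa. Values are compared between libraries and not between genes, because they are not corrected for gene length.

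Cells that colonise the brain must attach to and remodel a basement membrane along blood vessels, and they meet immune cells and the interferons these release. Laminins, collagens and fibronectin form the matrix, contractile and adhesion proteins connect it to the cell, and secreted proteases break it down. Interferons switch on a large set of antiviral genes through a DNA element in their promoters, and class I HLA proteins present peptides to T cells. HER2, the receptor encoded by ERBB2, drives growth in this kind of breast cancer and is amplified together with its neighbours on chromosome 17.

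The libraries held 13.25 to 20.05 M recovered reads, and 3 reads corresponded to a normalized value of 0.152 to 0.225, a limit that covers counting error only. S-BM libraries varied more among themselves than Pa libraries: the median SD across genes on the log2 scale was 0.174 in S-BM and 0.0983 in Pa. S-BM 2 lay nearest to Pa, with 310 of the genes kept at least 2-fold from the Pa mean, against 632 in S-BM 1, 633 in S-BM 3 and 642 in S-BM 4. Each Pa library had 2 to 16 such genes against the mean of the other Pa libraries. S-BM 3 and S-BM 4 were close to each other, at 4.10 times the sampling noise of their counts, where other pairs of S-BM libraries stood at 44.0 to 89.1 times. On this measure S-BM 2 stood at 64.1 to 77.6 times from the Pa libraries, nearer than to S-BM 4 (89.1 times). S-BM 3 and S-BM 4 also had low ERBB2 values, given below, so counts are given without them too. All 10 epithelial markers, EPCAM and KRT8 among them, reached a value of 10 in both groups. Their summed level was 7441 to 11904 in S-BM and 13264 to 14048 in Pa, and without ERBB2, which is 1 of them, 7088 to 7795 and 8383 to 9119. None of the astrocyte, neuron and fibroblast markers found in the tables reached 10 in any of the 7 libraries. MBP, CD68, CSF1R, PECAM1 and CDH5 were the only markers of other brain or blood cells that did, while AIF1, TMEM119 and MOBP were at 0 in all 7.

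More genes stood lower than higher in S-BM. Of the 9585 genes kept, 125 were called higher (1.3%) and 283 lower (2.95%), while the median difference over all genes was −0.0050. Without a minimum size, the ranges did not overlap for 4134 genes (43.1%), 2089 higher and 2045 lower. At 4-fold or more 20 genes were higher (0.209%) and 64 lower (0.668%). Without S-BM 3 and S-BM 4 the counts were 125 higher and 259 lower, of which 87 and 210 were among the genes called with all libraries. Without S-BM 2 they were 191 and 383. A total of 177 genes were kept although no Pa library reached 10, and 44 of the 125 genes called higher were of this kind. In the other direction 112 genes had no S-BM library at 10, and 65 of them were called lower. The filter left such genes only 1 direction in which to be called. They include COL4A2, CD109, PDCD1LG2, TNFAIP3, FOSL1, GFPT2 and FADS3 among the higher calls named below. IFI27, OAS2, IFI44, IFI6, CES1, FADS1 and SLC16A7 are among the lower ones. In the plot of difference against level the largest differences lie at low and middle levels.

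**Figure D1:**
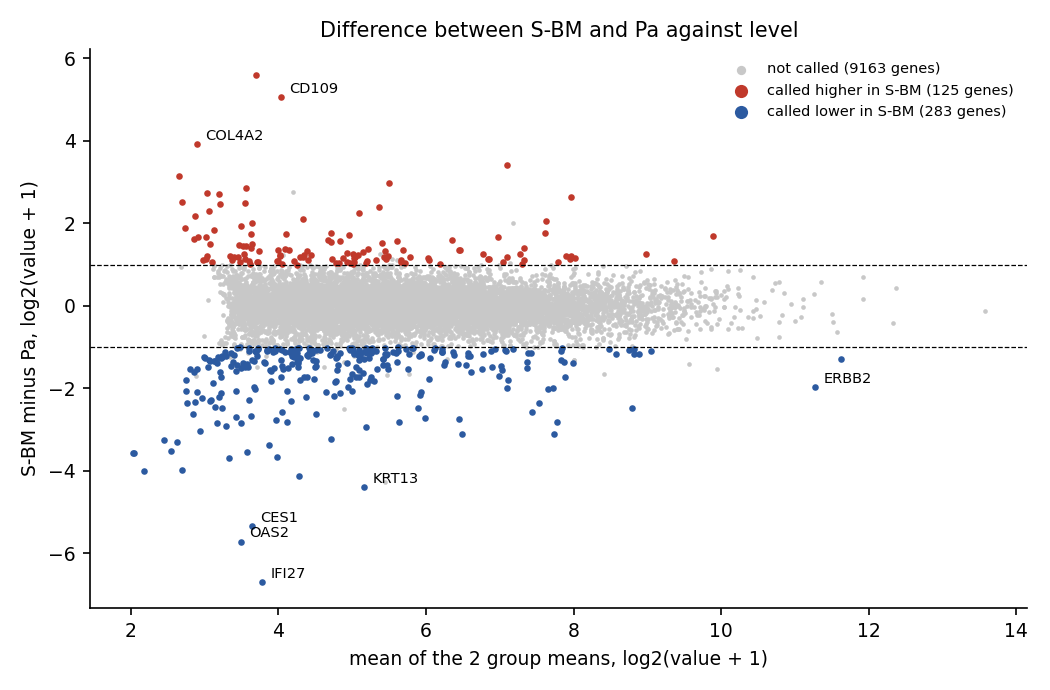
Each point is 1 gene kept, with names turned into dates left out; the x axis gives the mean of the S-BM and Pa means and the y axis the S-BM mean minus the Pa mean, both as log2(value + 1), with dashed lines at 2-fold. The 125 genes called higher are red and the 283 called lower are blue; IFI27, OAS2 and CES1 are labelled among the lowest and CD109 and COL4A2 among the highest.

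Genes of the extracellular matrix and of the contractile cytoskeleton were among the largest higher calls. COL4A2, a chain of basement membrane collagen IV (chromosome 13, 110307284 to 110513209, GRCh38), had a normalized value of 17.9, 15.1, 44.2 and 51.1 in S-BM 1 to 4 and 0.662, 1.12 and 0.983 in Pa 1 to 3 (15.2-fold higher). S-BM 3 and S-BM 4 were the highest, and all 4 S-BM libraries exceeded Pa; without those libraries the fold was 9.13. THBS1, which encodes the matrix glycoprotein thrombospondin 1, was 6.26-fold higher, with 493, 345, 946 and 931 in S-BM against 98.4, 101 and 96.3 in Pa. Fibronectin, FN1, was 4.17-fold higher, with 415, 546, 342 and 341 against 73.9, 98.8 and 121. Without S-BM 3 and S-BM 4 THBS1 was 4.16-fold higher. For both genes the groups did not overlap, and Lat stood higher still, at 1795 to 4951 for FN1 and 1355 to 4294 for THBS1. The list of collagens, laminins and matrix proteins had 18 genes kept and a median difference of 0.21. Of these, 4 were called higher and 0 lower, against 1.3% and 2.95% of all genes kept. The 4 include CYR61, a secreted YAP target, at 2.02-fold, which fell under 2-fold without S-BM 4 or without Pa 1.

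Among 12 mesenchymal genes kept, 5 were called higher and 0 lower, where all genes kept gave 1.3% and 2.95%. The median difference of the 12 was 0.86. CALD1, caldesmon, a regulator of actin and myosin, had values of 90.2, 172, 129 and 125 in S-BM and 13.1, 14.7 and 17.8 in Pa (7.88-fold higher). TAGLN, the actin-binding protein transgelin, had 61.2, 65.9, 74.4 and 95.7 and 11.98, 18.0 and 14.4 (4.76-fold higher). The lowest S-BM library was 5.07 times the highest Pa library for CALD1 and 3.40 times for TAGLN. Tropomyosin 1 (TPM1) was 2.30-fold and the collagen cross-linking enzyme LOXL2 2.13-fold higher, LOXL2 not without S-BM 4. Vimentin (VIM), the filament protein most often used to mark mesenchymal cells, was not called: it stood at 15.1 ± 2.40 in S-BM and 15.4 ± 4.50 in Pa. E-cadherin (CDH1), the epithelial adhesion protein, was at 767 ± 83.1 and 851 ± 35.3, and the ranges overlapped. FSCN1, fascin, which bundles actin in cell protrusions, was 3.28-fold higher, with 48.7, 23.7, 82.3 and 97.2 in S-BM against 16.7, 15.6 and 16.2 in Pa. S-BM 2 was closest to Pa for FSCN1, and the call was 2.04-fold without S-BM 3 and S-BM 4. None of 11 integrin genes kept was called. With shares of 1.3% and 2.95% over all genes kept, so short a list need not hold a call.

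**Figure D2:**
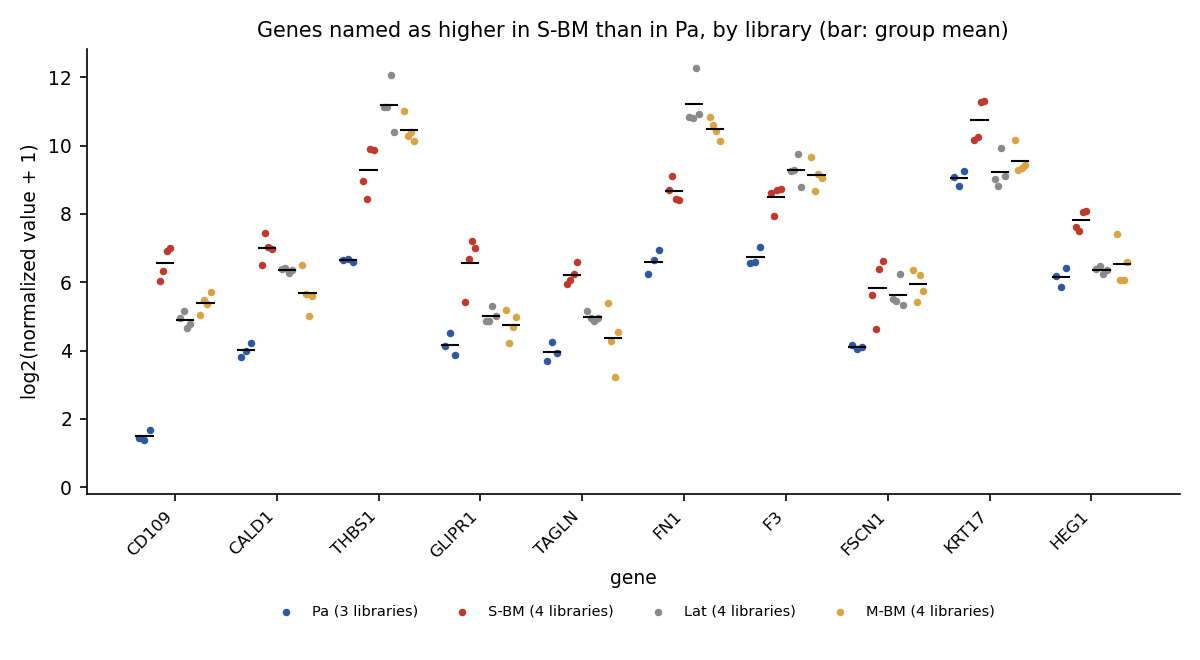
Values of genes named as higher, as log2(value + 1) on the y axis, with 1 point per library and a bar at the group mean; colours mark Pa (3 libraries), S-BM, Lat and M-BM (4 each). CD109 is near the bottom in Pa, and for THBS1 and FN1 the Lat and M-BM libraries lie above S-BM.

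Some genes of TGF-beta signalling were called higher. CD109, a membrane protein that binds TGF-beta (chromosome 6, 73679192 to 73828313), measured 64.0, 79.0, 118 and 127 against 1.72, 1.62 and 2.18 (33.3-fold higher). CD109 was lower in the other groups of the same table than in S-BM, at 24.4 to 34.3 in Lat and 32.0 to 51.7 in M-BM. CD109 is not on the list of TGF-beta and BMP genes. On that list 5 of 21 genes kept were called higher and 0 lower, against 1.3% and 2.95% of all genes kept. The list's median difference was 0.21. The ranges did not overlap for 6 higher and 6 lower genes, where all 9585 genes kept gave 2089 and 2045. FSTL3, a secreted activin antagonist, was 4.32-fold higher (41.5 ± 9.11 against 8.93 ± 2.90). PMEPA1, a membrane inhibitor of TGF-beta signalling, was 2.38-fold, INHBA, an activin subunit, 2.21-fold and the ligand TGFB2 2.18-fold higher. TGFB2 was no longer called without S-BM 3 and S-BM 4. Against the same shares of all genes kept, 3 of 23 YAP and TEAD targets kept, median 0.29, were called higher and 0 lower. They were CYR61, TGFB2 and F3, tissue factor, which starts blood clotting and stood at 369 ± 84.4 against 106 ± 19.7 (3.42-fold higher).

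Interferon-stimulated genes stood lower in S-BM. Of 33 kept, 7 were called lower and 0 higher, against 2.95% and 1.3% of all genes kept. The median difference of the 33 was −0.47. The ranges did not overlap for 26 lower and 2 higher genes, against 2045 and 2089 of all 9585 genes kept. IFI27, OAS2, IFI44 and IFI6 had no S-BM library at 10, so they were kept through Pa and could only be called lower. IFI27, an interferon-induced mitochondrial protein (chromosome 14, 94105894 to 94116690), measured 0.513, 0.455, 0.150 and 0.291 in S-BM and 92.0, 202 and 144 in Pa, 104-fold lower. S-BM values of IFI27 amount to a few reads per library, while the lowest Pa library was 180 times the highest S-BM library. OAS2, a sensor enzyme for double-stranded RNA (chromosome 12, 112978519 to 113011723), measured 0.228, 2.43, 0.0750 and 0.291 against 59.3, 107 and 82.3 (52.4-fold lower). S-BM 2 was the highest S-BM library for OAS2 and remained below all Pa libraries. IFI44 was 8.13-fold lower (1.87 ± 1.28 against 21.6 ± 6.52). IFI6, which restrains cell death, was 5.98-fold lower (5.99 ± 2.08 against 40.2 ± 10.01). OAS1 was 4.02-fold, IFIT1, which binds foreign RNA, 3.31-fold and TRIM22 2.02-fold lower. TRIM22 was at the limit of 2-fold and was not called without S-BM 1, without Pa 2 or with joint scaling of both tables. Pa 2 had the highest value of the 3 Pa libraries for IFI27, OAS2, IFI44, OAS1, IFIT1 and TRIM22. The factors that relay the signal differed less: STAT2 was at 104 ± 12.01 in S-BM and 133 ± 3.94 in Pa, and IRF9 at 44.999 ± 3.53 and 61.4 ± 7.65. GBP1, a guanylate-binding protein induced mainly by interferon gamma, lay the other way, at 129 ± 25.3 and 71.4 ± 3.54, without reaching 2-fold. In the other brain-tropic cells IFI27 was low too, at 1.22 to 22.7 in Lat and 0.587 to 1.82 in M-BM. As for any difference from Pa, table and group cannot be told apart. Within the table, S-BM was set against the mean of Lat and M-BM with limma, a test that passed for 33.1% of genes with S-BM higher and 28.2% with S-BM lower. The test takes libraries as independent, which the labels do not state, so its p-values may measure technical spread. The 7 genes called lower against Pa went both ways within the table. S-BM was below that mean for IFI27 (−1.31 on the log2 scale, adjusted p = 0.0294, limma), OAS2 (−1.10, adjusted p = 0.0358) and IFI44 (−0.84, adjusted p = 0.029). It was above it for OAS1 (0.97, limma, adjusted p = 0.0114) and TRIM22 (1.89, adjusted p = 2.08e-05), as it was for GBP1 (1.28, adjusted p = 6.12e-06). IFI6 (0.01, limma, adjusted p = 0.99) and IFIT1 (0.33, adjusted p = 0.222) did not pass.

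The promoters of 4 of these genes are shown because each carries a match to the interferon-stimulated response element, searched here as GAAANNGAAA on both strands. They are the 250 bases before the transcription start in the RefSeq table (GRCh38.p14), 5′ to 3′ on the strand of the gene, with matches in capitals; a match on the other strand reads TTTCNNTTTC. The start used for IFI27 lies inside the span given above for the gene. The search covered 250 bases before to 50 bases after the start.
IFI27, plus strand, chr14:94110486-94110735: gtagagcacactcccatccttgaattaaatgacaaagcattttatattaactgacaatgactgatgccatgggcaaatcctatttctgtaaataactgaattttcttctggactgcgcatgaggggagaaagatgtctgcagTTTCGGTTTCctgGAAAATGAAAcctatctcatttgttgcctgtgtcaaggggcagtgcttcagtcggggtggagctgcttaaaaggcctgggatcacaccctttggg
IFI44, plus strand, chr1:78649539-78649788: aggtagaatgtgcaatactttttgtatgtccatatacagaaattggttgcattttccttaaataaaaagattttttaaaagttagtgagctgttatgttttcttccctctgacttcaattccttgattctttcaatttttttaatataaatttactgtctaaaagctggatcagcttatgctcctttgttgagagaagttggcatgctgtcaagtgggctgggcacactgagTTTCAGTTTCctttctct
IFI6, minus strand, chr1:27672193-27672442: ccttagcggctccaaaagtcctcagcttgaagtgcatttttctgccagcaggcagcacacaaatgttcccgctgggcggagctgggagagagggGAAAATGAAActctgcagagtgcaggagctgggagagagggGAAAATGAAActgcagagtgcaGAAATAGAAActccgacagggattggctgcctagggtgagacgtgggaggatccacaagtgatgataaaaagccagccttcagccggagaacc
IFIT1, plus strand, chr10:89392373-89392622: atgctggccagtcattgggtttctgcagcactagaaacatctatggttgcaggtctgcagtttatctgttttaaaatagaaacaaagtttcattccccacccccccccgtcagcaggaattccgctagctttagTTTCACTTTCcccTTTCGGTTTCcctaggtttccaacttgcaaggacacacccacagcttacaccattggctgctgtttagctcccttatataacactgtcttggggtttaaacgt
IFI27 carries 2 matches beginning 108 and 95 bases before the start, IFI44 a single match at 18 bases, IFI6 3 matches at 156, 115 and 93 bases, and IFIT1 2 matches at 116 and 103 bases. The window of OAS1 held no match to this pattern. It did hold GAAACGAAA, with 1 base between the repeats, which the search leaves out. OAS2 and TRIM22 were not among the promoters searched. The motif occurred in 996 of all 27305 promoters (3.65%) and in 215 of 7900 promoters of genes kept (2.72%). The share was 17 of 27 (63.0%) for interferon-stimulated genes kept, 12 of 216 (5.56%) for genes called lower in S-BM and 2 of 88 (2.27%) for genes called higher. A match describes the letters only and shows no binding.

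**Figure D3:**
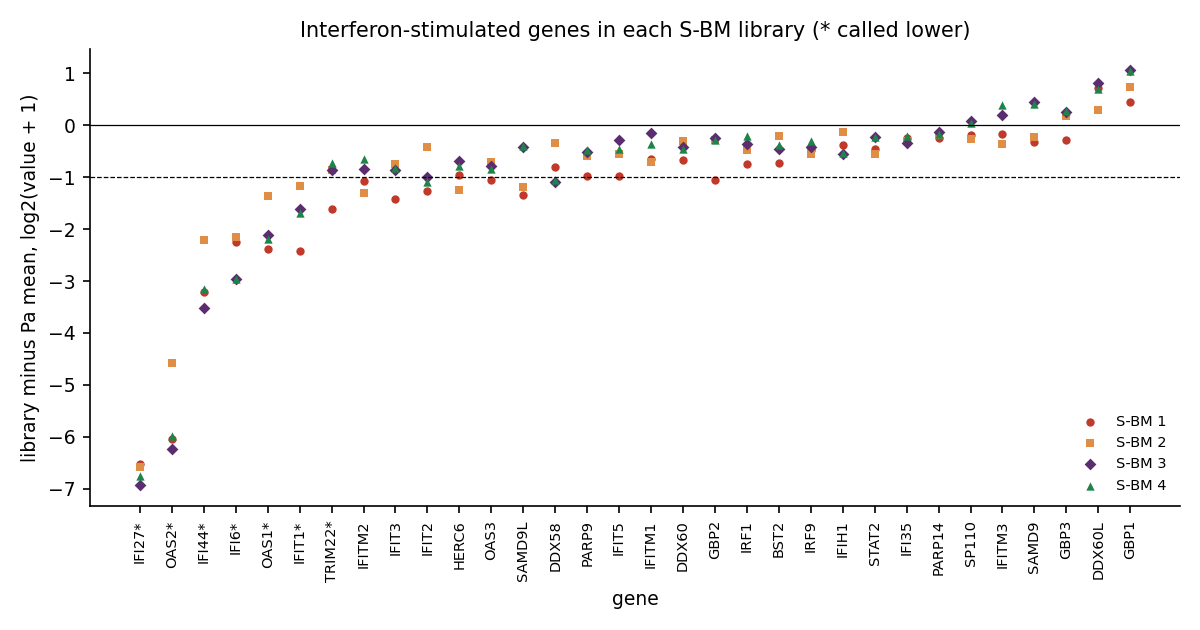
Interferon-stimulated genes are set along the x axis, and the y axis gives each S-BM library minus the Pa mean as log2(value + 1). The 7 genes called lower, marked with an asterisk, lie at the left, and most others lie between 0 and −1, the dashed line at 2-fold; S-BM 2 is the least changed library for OAS2, IFI44, OAS1 and IFIT1.

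Antigen presentation genes were unevenly placed. HLA-B, a class I peptide-presenting chain, stood at 332 ± 33.4 in S-BM and 291 ± 10.8 in Pa, and HLA-C at 162 ± 10.001 and 173 ± 12.7, neither of them called. Beta 2 microglobulin, B2M, the partner of all class I chains, was at 902 ± 77.1 and 1333 ± 15.3. TAP1, a peptide transporter, was at 184 ± 13.9 and 139 ± 5.81. Class I genes are alike and differ between alleles, so their reads may be misplaced by alignment and their levels are uncertain. HLA-DMA, which loads class II molecules, was 2.70-fold lower. The list had 21 genes kept, 2 of them called lower and 0 higher, against 2.95% and 1.3% of all genes kept. Its median was −0.37.

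Ligands read by immune cells stood higher in some cases and lower in others. PDCD1LG2, encoding PD-L2, was 6.71-fold higher, with 21.6, 8.70, 30.2 and 28.1 in S-BM and 1.52, 2.87 and 2.18 in Pa. CD274, encoding PD-L1, was 2.41-fold higher, with 67.3, 22.9, 61.9 and 59.8 and 18.2, 20.7 and 20.5. S-BM 2 was the lowest S-BM library for both and lay just above Pa for CD274, which was no longer called without S-BM 3 and S-BM 4. LGALS9, a galectin bound by surface proteins of T cells, was 3.44-fold and the checkpoint protein VTCN1 2.24-fold lower. Counting all 13 genes kept of the NK and checkpoint list, 3 were called higher and 2 lower, against 1.3% and 2.95% of all genes kept. TNFAIP3, a brake on NF-kappa B, was 7.21-fold higher (38.1, 15.2, 38.7 and 39.0 against 3.51, 3.50 and 3.17) and the cytokine LIF 2.82-fold higher; they were the only called genes among 15 inflammatory cytokines and related genes kept. On the list of death ligands and receptors, 1 of 24 genes kept was higher and 2 lower, against the same shares of all genes kept. TNFSF10, encoding the death ligand TRAIL, was 2.84-fold lower (103 ± 36.8 against 281 ± 43.5), and TNFRSF12A, the receptor of TWEAK, 2.55-fold higher.

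Epithelial keratins and adhesion proteins gave calls in both directions. KRT13, a keratin of stratified epithelium, measured 4.84, 4.402, 8.92 and 10.8 in S-BM and 128, 116 and 289 in Pa (21.0-fold lower), and KRT4, its partner, 13.7, 17.1, 20.3 and 20.6 and 119, 107 and 173 (6.99-fold lower). Neither overlapped between groups. KRT17, a keratin of basal and injured epithelium, lay the other way, at 1136, 1206, 2474 and 2503 and 537, 451 and 604 (3.24-fold higher). S-BM 3 and S-BM 4 had the higher KRT17 values of the 4. KRT15 was 2.46-fold lower, KRT80 2.39-fold and KRT81 2.13-fold higher. KRT80 was not called without S-BM 3 and S-BM 4 together, and KRT81 not without S-BM 3, S-BM 4 or Pa 1 alone. Keratins resemble one another, so reads may be shared between them and their levels are uncertain. Of 24 basal and squamous genes kept, median −0.40, 3 were called higher and 5 lower, where all genes kept gave 1.3% and 2.95%. The carcinoembryonic adhesion proteins CEACAM5 and CEACAM6 were 17.5-fold and 8.63-fold lower, CEACAM6 with 101, 161, 41.5 and 38.4 in S-BM against 549, 778 and 569 in Pa and 4.87-fold lower without S-BM 3 and S-BM 4. S100A8, a calcium-binding alarm protein, was 3.27-fold and S100A7 2.78-fold lower.

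Luminal factors gave 3 lower and 0 higher calls among 17 genes kept, against 2.95% and 1.3% of all genes kept. The list's median was −0.53. GATA3, the transcription factor of luminal breast cells, was 2.24-fold lower (18.1, 24.5, 22.4 and 23.2 in S-BM against 44.99, 46.5 and 60.8 in Pa), and AGR2, a secretory pathway disulfide isomerase, 2.93-fold lower. AGR2 measured 70.6, 67.6, 86.5 and 79.3 in S-BM. Both AGR2 and GATA3 were lower still in Lat and M-BM, with GATA3 at 13.5 to 17.6 and 12.8 to 16.6, and S-BM exceeded their mean within the table (GATA3 0.53, adjusted p = 8.90e-04; AGR2 1.87, adjusted p = 2.86e-04; limma). SOX2, a stem cell transcription factor, was 6.37-fold lower, with 2.62, 11.4, 2.55 and 2.62 and 26.9, 29.5 and 34.8. S-BM 2 held more SOX2 than the other S-BM libraries and still less than Pa. WNT5A, a secreted WNT ligand, was 12.7-fold lower (4.73 ± 4.70 against 55.5 ± 1.86), or 6.52-fold without S-BM 3 and S-BM 4. DKK1, a WNT inhibitor, and SOX9 were not called, at 209 ± 54.4 against 153 ± 21.1 and 118 ± 4.04 against 104 ± 2.78. CDKN1A, the cell cycle inhibitor p21, was 2.20-fold higher (170 ± 14.4 against 76.5 ± 6.27).

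MMP13 and MMP7, a pair of secreted metalloproteinases, were called lower. MMP13, collagenase 3, measured 7.29, 37.5, 55.6 and 47.7 in S-BM and 245, 133 and 544 in Pa (8.54-fold lower), and MMP7, matrilysin, 21.9, 59.8, 22.3 and 20.4 and 100, 108 and 189 (4.43-fold lower). Pa 3 was the highest library for both. MMP13 was 5.53-fold lower without S-BM 1 and 14.6-fold without S-BM 3 and S-BM 4. MMP14, a membrane-bound metalloproteinase, was 3.30-fold and CTSS, the lysosomal protease cathepsin S, 2.56-fold lower, MMP14 5.62-fold without S-BM 3 and S-BM 4. The list of metalloproteinases, cathepsins and the plasminogen system had 22 genes kept and a median of −0.21. It had 1 higher and 4 lower calls, against 1.3% and 2.95% of all genes kept. Its ranges did not overlap for 4 higher and 7 lower genes, where all 9585 genes kept gave 2089 and 2045. Among 9 genes kept that are linked to brain colonisation, 2 were called lower, CTSS and PTGS2, which makes prostaglandins (3.33-fold). None was called higher, but at 1.3% of all genes kept so short a list need not hold a higher call. The median of these 9 was 0.12, with 6 above 0 and 3 below. The adhesion molecule L1CAM, which lets cancer cells spread along brain capillaries, stood at 25.6 ± 1.91 in S-BM and 13.2 ± 1.81 in Pa, without overlap but under 2-fold. HPGD, which degrades prostaglandins, measured 30.1, 100, 123 and 121 and 588, 474 and 706 (7.02-fold lower), and NPNT, the matrix protein nephronectin, was 9.38-fold lower.

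ERBB2 itself (chromosome 17, 39688094 to 39728658) measured 4109, 4642, 353 and 367 in S-BM and 4881, 4925 and 4929 in Pa, so the call of 3.91-fold lower rests on S-BM 3 and S-BM 4 and was lost without them. Leaving out a single S-BM library gave 2.57-fold (S-BM 3), 2.60-fold (S-BM 4) and 6.05-fold (S-BM 2). The amplicon list, with 4 of 12 genes kept called lower and a median of −1.47, follows the same 2 libraries. Around the receptor, 2 of 16 ERBB genes kept were called higher and 3 lower, against 1.3% and 2.95% of all genes kept. The list's median was 0.40. The MAP kinase phosphatases DUSP5 and DUSP6, which are induced by growth factor signalling, were 2.19-fold and 2.10-fold higher; neither was called without S-BM 1, and DUSP6 not without Pa 3. LRIG1, a negative regulator of ERBB receptors, measured 14.5, 36.3, 8.25 and 10.1 in S-BM and 61.9, 58.0 and 60.2 in Pa (3.91-fold lower, 2.54-fold without S-BM 3 and S-BM 4), and SPRY1, an inhibitor of the same cascade, was 2.54-fold lower, a call lost without S-BM 3 and S-BM 4. The ligand EPGN was 2.87-fold lower. EGFR stood at 317 ± 50.3 against 213 ± 17.2 and ERBB3 at 104 ± 12.9 against 167 ± 10.7; neither reached 2-fold, though their ranges did not overlap. PIK3R1, the regulatory subunit of PI3 kinase, measured 42.2, 159, 61.4 and 59.0 and 393, 410 and 467 (5.93-fold lower). S-BM 2 had the highest PIK3R1 value of the S-BM libraries and lay below Pa. IRS2, an adaptor of the insulin receptor, was 3.07-fold higher and PIK3R3 2.13-fold lower, and with PIK3R1 these were the 3 calls among 24 PI3K and AKT genes kept. Leaving out S-BM 3 or S-BM 4 alone ended the PIK3R3 call. AKT1 was at 77.2 ± 4.62 and 81.7 ± 3.51 and AKT2 at 79.2 ± 5.08 and 98.2 ± 7.86.

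Immediate early genes gave 4 higher calls of 20 kept and 0 lower, against 1.3% and 2.95% of all genes kept. The median of this list was 0.09, or −0.13 without S-BM 3 and S-BM 4. FOSL1, a partner of JUN, measured 21.5, 6.88, 19.6 and 19.96 in S-BM and 3.44, 3.87 and 3.55 in Pa (3.60-fold higher), against 174 to 247 in Lat and 93.0 to 188 in M-BM. S-BM therefore lay between Pa and the other brain-tropic groups, with a difference of −3.30 from their mean within the table (adjusted p = 3.64e-07, limma). MAFF was 2.77-fold and IER3 2.64-fold higher. MYC was not called (167 ± 35.7 against 124 ± 2.55). Of 37 genes kept for MYC and ribosome biogenesis, 2 were higher, the nucleolar methyltransferase NOP2 (2.29-fold) and ODC1, which starts polyamine synthesis (2.17-fold), and 2 lower, MYCL1 (4.82-fold) and MXD3 (2.06-fold). ODC1 was not called without S-BM 1, nor MXD3 without S-BM 1, S-BM 3 or Pa 2. The list's median was 0.40, and 21 of its genes had higher ranges without overlap against 3 with lower ones. Cytosolic ribosomal protein genes leaned the same way, at a median of 0.25 with 21 of 66 higher and 1 lower without overlap, and none was called. Among all 9585 genes kept, 2089 were higher and 2045 lower without overlap. As for any difference between S-BM and Pa, table and group cannot be told apart in these leans.

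Most of the lipid genes called stood lower. The fatty acid synthesis and desaturation list had 22 genes kept, 3 called lower and 1 higher, with a median of −0.44. All genes kept gave 2.95% lower and 1.3% higher calls. FASN, fatty acid synthase, measured 273, 359, 272 and 302 in S-BM and 631, 745 and 655 in Pa (2.25-fold lower). The 3 desaturases that lie side by side on chromosome 11 diverged: FADS1 was 4.24-fold and FADS2 2.15-fold lower, and FADS3 4.03-fold higher (24.97 ± 7.75 against 5.23 ± 0.854). FADS2 was not called without S-BM 4. FADS1 measured 1.99, 1.87, 3.30 and 3.67 in S-BM and 12.6, 17.4 and 13.5 in Pa but 46.2 to 55.4 in Lat and 36.6 to 59.0 in M-BM. Of 28 cholesterol genes kept, 19 were lower without overlap and 0 higher, against 2045 and 2089 of all 9585 genes kept. Their median was −0.55, but only 2 were called, MVK (2.09-fold) among them. Of 27 fatty acid oxidation genes kept, 4 were called lower and 0 higher: ACSL1 (2.47-fold), which activates long-chain fatty acids, CRAT (2.26-fold), ACSL5 (2.10-fold) and HADH (2.06-fold). MVK, ACSL5 and HADH were not called without S-BM 1, ACSL5 also not without Pa 2 and HADH not without S-BM 4. CPT1A, the gate of mitochondrial import, stood at 87.1 ± 14.4 and 87.6 ± 9.34.

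Sugar and amino acid genes gave calls in both directions. On the lists described here 3.4% (NRF2 targets) to 15.4% (lactate production and transport) of genes kept were called. Over all genes kept 1.3% were called higher and 2.95% lower. GLUL, glutamine synthetase, measured 159, 315, 154 and 156 in S-BM and 1025, 1039 and 1078 in Pa (5.60-fold lower), and ASNS, asparagine synthetase, was 2.07-fold higher (317 ± 23.8 against 152 ± 11.3). These were the 2 calls among 25 glutamine and aspartate genes kept. GFPT2, the entry enzyme of hexosamine synthesis, was 8.93-fold higher (15.4, 11.2, 23.3 and 25.1 against 1.59, 0.999 and 0.819). The monocarboxylate carriers SLC16A4 and SLC16A7 were 9.46-fold and 7.09-fold lower. SLC16A7 measured 6.17 in S-BM 2 and 1.5 to 1.71 in the other S-BM libraries. It was therefore kept through Pa and could only be called lower. The lactate exporters SLC16A1 (188 ± 33.1 against 142 ± 24.2) and SLC16A3 (50.2 ± 5.06 against 51.6 ± 9.37) and lactate dehydrogenase LDHA (615 ± 98.7 against 521 ± 35.6) were not called. On the glycolysis list the glucose carrier SLC2A12 (4.16-fold lower) was the only call of 19 genes kept. SLC7A11, the cystine importer, stood at 131 ± 44.4 in S-BM and 71.0 ± 6.51 in Pa, without overlap and under 2-fold, and at 328 to 540 in Lat. The glutathione list gave 3 lower calls of 24 kept, GSTA4 (4.31-fold), GPX2 (3.54-fold) and GGT1 (3.02-fold). AKR1C3, a ketosteroid reductase, was the only call of 29 NRF2 targets kept (4.17-fold lower). Without S-BM 3 and S-BM 4 GPX2 was 6.05-fold and AKR1C3 2.17-fold lower.

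Growth genes gave no calls. None of 49 DNA replication and mitosis genes kept was called, and their median was −0.09. MKI67, the proliferation marker Ki-67, stood at 244 ± 57.7 in S-BM and 255 ± 4.91 in Pa. None was called either among 27 tricarboxylic acid cycle genes (median −0.05), 20 hypoxia genes (−0.10) and 17 genes of mitochondrial fission and fusion (0.23), where the fission enzyme DNM1L was at 66.5 ± 4.44 and 56.3 ± 1.74. In all, 37 of 48 lists held at least 1 called gene and 11 held none. Over all genes kept 1.3% were called higher and 2.95% lower, so these counts depend on the length of a list. A short list without a call need not stand apart from other genes.

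A smaller set of genes set S-BM apart from all 11 other libraries. For 16 genes (0.167%) every S-BM library lay above all others with a mean at least 2-fold beyond the nearest group, and for 22 genes (0.23%) below, or 35 without S-BM 2. Since the choice fixes where S-BM lies against Lat and M-BM, these genes' values are a description with no test. CES1, a carboxylesterase that hydrolyses esters and drugs (chromosome 16, 55802851 to 55833096), measured 4.73, 1.47, 0 and 0.0582 in S-BM, 79.1, 116 and 51.9 in Pa, 38.3 to 78.9 in Lat and 45.2 to 69.1 in M-BM. It was 40.3-fold lower than in Pa, or 21.1-fold without S-BM 3 and S-BM 4. S-BM 3 held no CES1 read. CES1 has a near-identical copy, so its level is uncertain. FADS1, described above, belongs to the same lower set. DYNC2H1, the motor of transport within cilia, was evenly low in S-BM, at 20.3, 23.02, 15.97 and 18.0, against 64.2, 49.0 and 72.3 in Pa (3.08-fold lower) and 48.3 to 63.7 in Lat. CAMK2D, a calcium-dependent kinase, was 2.70-fold and PADI3, which converts arginine to citrulline in proteins, 2.27-fold lower than in Pa, PADI3 under 2-fold without S-BM 2 or without Pa 1. In the higher set, NNMT, nicotinamide N-methyltransferase, measured 96.1, 101, 189 and 199 in S-BM and 52.1, 69.0 and 43.2 in Pa (2.55-fold higher), with 8.90 to 37.0 in Lat and 11.7 to 33.0 in M-BM. NNMT was under 2-fold without S-BM 3 and S-BM 4 together. GLIPR1 measured 41.8, 101, 146 and 127 and 16.5, 21.9 and 13.5 (5.28-fold higher), and HEG1, a membrane mucin, 196, 178, 266 and 271 and 72.1, 56.7 and 84.2 (3.16-fold higher). TGM2, a protein cross-linking enzyme, was 2.04-fold higher than in Pa and was under 2-fold without S-BM 3, S-BM 4, Pa 1 or Pa 3. The efflux transporter ABCG2 was low in S-BM and Pa alike (4.17 ± 0.819 against 5.76 ± 2.07) and stood at 65.6 to 101 in Lat.

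**Figure D4:**
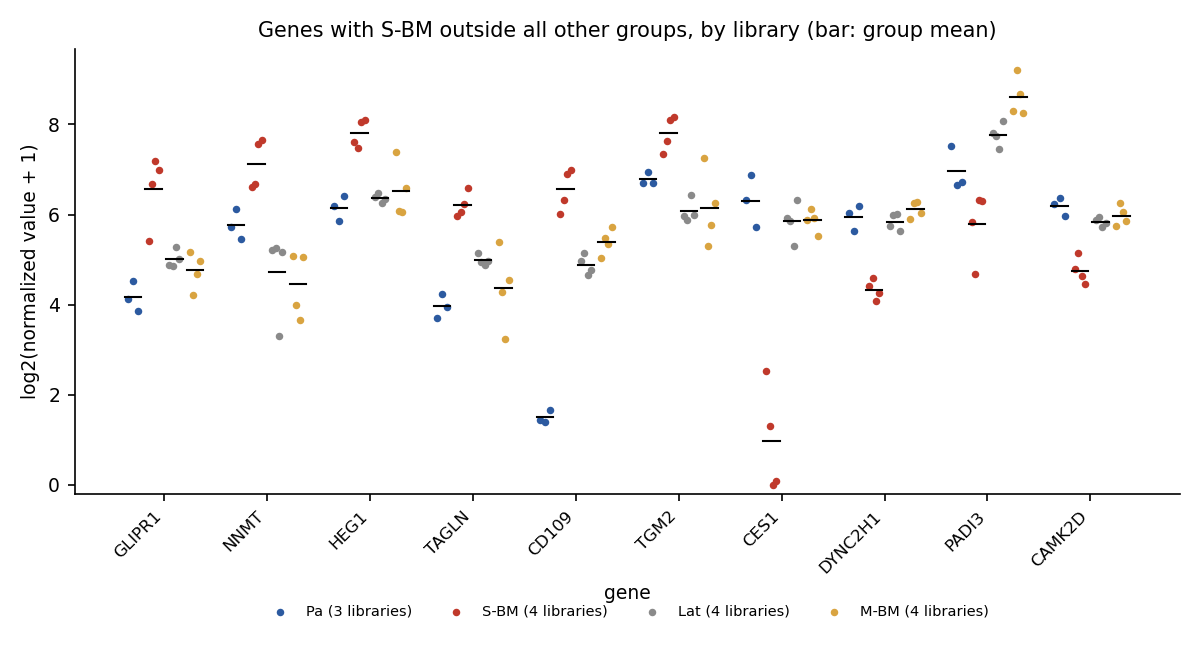
Values of the genes named for S-BM lying outside all other groups, as log2(value + 1) on the y axis, with 1 point per library and a bar at the group mean. The red S-BM points lie above all others for GLIPR1, NNMT, HEG1, TAGLN, CD109 and TGM2 and below all others for CES1, DYNC2H1, PADI3 and CAMK2D; for CES1 S-BM 3 and S-BM 4 lie lowest.

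Neighbouring genes shared differences in places. Runs of 5 or more consecutive genes kept, each at least 2-fold from the Pa mean in the same direction, occurred in S-BM 3 and S-BM 4 only. These were the 8 genes from PPP1R1B to ORMDL3 around ERBB2, with medians of −3.56 and −3.45, and the keratin genes KRT81, KRT75, KRT6B, KRT6A and KRT5 on chromosome 12 (52285913 to 52520394), with medians of 1.70 and 1.71. KRT5, a basal cell keratin, measured 107, 70.9, 937 and 945 in S-BM 1 to 4 and 250, 216 and 440 in Pa, so S-BM 1 and S-BM 2 lay below Pa and S-BM 3 and S-BM 4 above it. Broader and smaller shifts appeared when the genes were taken in 180 blocks of 50 neighbours (the last block of 23 chromosomes takes the remainder, up to 97 genes), a description chosen after the values were seen. In 8 blocks all 4 S-BM libraries had a median at least 0.25 above Pa, and in 1 block at least 0.25 below; no Pa library differed from the other Pa libraries by more than 0.229 in any block. The 8 blocks were 4 on chromosome 7, 3 on chromosome 6 and 1 on chromosome 16. The first block of chromosome 7 (FAM20C to C1GALT1, 192571 to 7248616) had medians of 0.52, 0.40, 0.57 and 0.69 in S-BM 1 to 4, with 98.0% of its genes higher. Lat and M-BM had 0.55 and 0.50 there. In 2 other blocks they lay on the other side of Pa. On chromosome 7 from SMURF1 to POLR2J (99027440 to 102478922) S-BM had 0.33 to 0.37, Lat −0.25 and M-BM −0.18. On chromosome 6 from 31530219 to 33322959 S-BM had 0.30 to 0.47, Lat −0.21 and M-BM −0.16. The block below Pa lay on chromosome 19 (SIPA1L3 to BCKDHA, 37907208 to 41425002), at −0.45 to −0.27 in S-BM, and included a Pa library at −0.21.

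**Figure D5:**
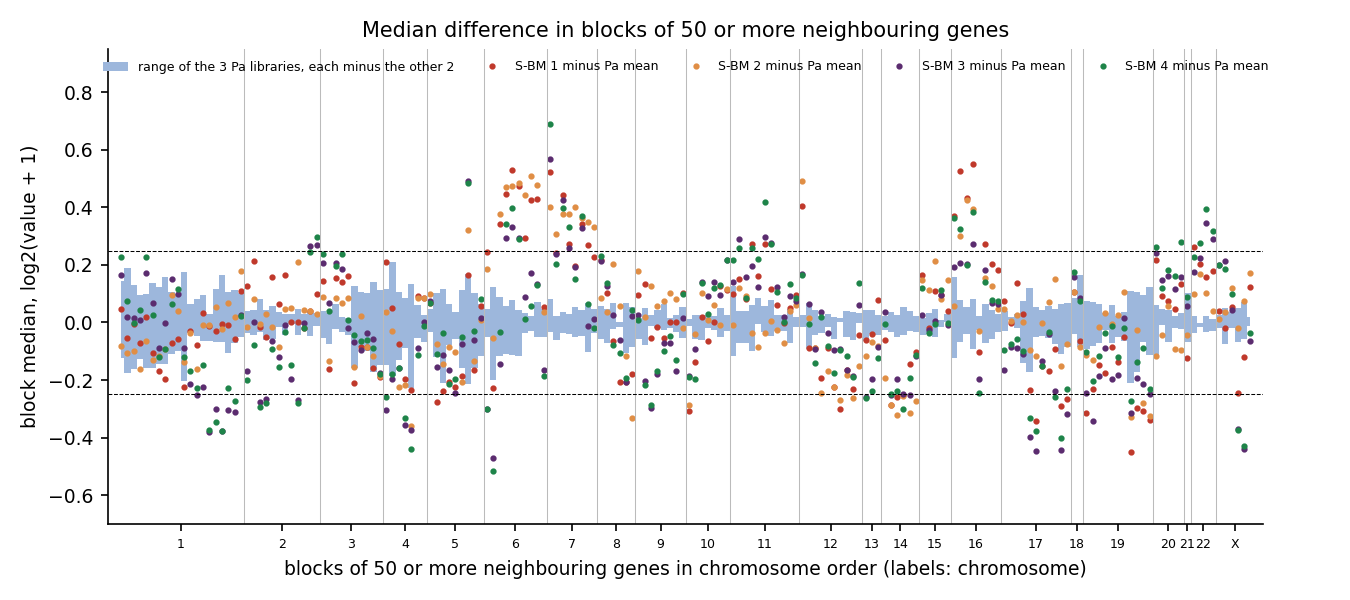
Median difference from the Pa mean in 180 blocks of 50 neighbouring genes, or up to 97 at a chromosome's end, ordered along the chromosomes named under the x axis, as log2(value + 1) on the y axis, with 1 colour per S-BM library; the blue band is the range of the 3 Pa libraries, each against the others, and dashed lines mark 0.25. All 4 S-BM libraries lie above 0.25 in 8 blocks on chromosomes 6, 7 and 16.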

How the data were processed

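Total RNA of cultured cells was sequenced from libraries made with a TruSeq RNA v2 kit, per the labels' protocols, and aligned to GRCh38 with Bowtie 0.12.2, per the submitters' processing notes. No source used here names the counter, the annotation or the scaling. The authors deposited 1 signal value, a normalized count, for each gene and library, in 2 tables. Whether these were normalized together is not stated, so they were treated as normalized apart, and the report gives no p-value between S-BM and Pa. Within each column 100% of values were whole multiples of 1 step within 0.05 reads, which gave 13.25 to 21.84 M reads per library over all 15. All columns were mapped to a sample by name, and 0 were left unmapped. Of the 19845 names, 27 had been turned into dates, 2 of them repeats, and none of these is named.

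Differences were computed on log2(value + 1) in Python 3.11.15. S-BM was tested against the mean of Lat and M-BM with limma 3.58.1 in R 4.3.3, with 3 group means, 9 residual degrees of freedom, a variance trend, and a two-sided Benjamini-Hochberg threshold of 0.05 over the 9585 genes. edgeR 4.0.16 on the recovered reads was an alternative, also between S-BM and Pa. Both were tested on simulated data. Genes were named by a rule: the 12 largest calls per direction whose higher mean reached 54.7, the 6 largest per direction for S-BM outside all other groups, up to 4 called members of each of 48 lists, a fixed set, and the genes of runs. LOXL2, OAS1, IFIT1, TRIM22, STAT2, IRF9, GBP1, HLA-B, HLA-C, B2M, TAP1, KRT15, KRT80 and DUSP6 were added after their values were seen. Some genes the rule names are not reported here. The comparison, the lists and the rule were chosen with earlier results of these data known. Gene positions and promoters are from RefSeq tables, in which 17545 names matched by symbol and 1526 by synonym.

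Alternatives changed the scaling, the pseudocount, the filter and the libraries included.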

Additional observations from a re-analysis of the deposited data

Results flagged for a closer look

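For 13 of the 122 genes whose values are given, a single S-BM library lay far from the other 3 by Dixon's criterion for 4 samples at the 95% level, which chance meets in about 6.1 of 122. All 13 were in S-BM 2, the library nearest to Pa. The figure of 6.1 takes genes and libraries as independent, which they are not, since S-BM 3 and S-BM 4 are close to each other. Many of the genes were also named because S-BM differs from Pa, a choice that can make the library nearest to Pa stand out. The 13 are therefore a description. S-BM 2 was above the others for OAS2 (2.43 against 0.0750 to 0.291), SOX2 (11.4 against 2.55 to 2.62), MMP7 (59.8 against 20.4 to 22.3), NPNT (15.8 against 5.12 to 6.60) and PIK3R1 (159 against 42.2 to 61.4). It was also above them for HADH (34.5 against 22.1 to 23.7), GLUL (315 against 154 to 159), SLC16A7 (6.17 against 1.5 to 1.71) and SLC2A12 (15.5 against 5.41 to 6.15). S-BM 2 was below the others for CD274 (22.9 against 59.8 to 67.3), TNFAIP3 (15.2 against 38.1 to 39.0), FOSL1 (6.88 against 19.6 to 21.5) and MAFF (11.2 against 19.6 to 20.5). What sets S-BM 2 apart was not tested.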

How the results depend on the processing

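The counts depended most on the filter. With a filter at 1, at 30 and without a filter, genes called higher numbered 230, 70 and 234, and genes called lower 462, 156 and 471, since fewer or more genes enter. At 4-fold the lower genes numbered 104, 33 and 104 in that order, or 28 with a pseudocount of 5, and the higher genes 10 with a filter at 30 and 9 with a pseudocount of 5. Genes with S-BM outside all other groups numbered 27, 8 and 27 higher and 60, 6 and 64 lower under the same filters, and 12 lower with a pseudocount of 5. Leaving out 1 library at a time gave 114 to 191 higher and 266 to 383 lower genes, 18 to 26 and 57 to 79 at 4-fold, and 13 to 24 and 21 to 35 for S-BM outside all others. The highest counts of called higher genes and of genes below all others came without S-BM 2. Against Lat and M-BM, limma gave 2977 to 3172 higher and 2450 to 2768 lower genes with 1 library left out, and 4168 lower without a filter. Runs numbered 9 with 4 genes, 2 with 7 genes and 10 with a filter at 1, against 4. With a pseudocount of 5, which shrinks differences of low genes, CYR61, LOXL2, INHBA, TRIM22, DUSP6, EPGN, MXD3, FADS2, MVK, ACSL5 and HADH were no longer called, and with quantile normalization ERBB2 was not.

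edgeR on recovered reads, with both tables scaled jointly, called 170 higher and 278 lower genes at an adjusted p of 0.05 and 2-fold; these calls compare libraries of 2 tables. Same-numbered S-BM and Pa libraries correlated at −0.0735 to 0.157 in their deviations from group means, 1 of 3 pairs above 0.1. Libraries with different numbers correlated at −0.200 to 0.121, 2 of 9 pairs above 0.1. With so few pairs it cannot be told whether replicate numbers pair libraries. With the replicate block edgeR gave 145 higher and 295 lower genes, against 151 and 261 without it on S-BM 1 to 3, an alternative added after the data were seen. limma with the replicate block gave 3150 higher and 2691 lower. Depth limits genes whose values amount to a few reads, such as IFI27 in S-BM.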
